A study of Homo sapiens with 6 samples.

Results

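The extracellular matrix genes described here are 10 genes for microfibril, fibulin and matricellular proteins: FBN1, FBN2, LTBP1, MFAP2, MFAP5, EFEMP1, EFEMP2, SPARC, TGFBI and COL8A1. They are 10 of the 18849 genes that the platform annotation names. The list was selected on the intensities of siSTAT3 against siCon measured on these same arrays, that is, with the changes below already known. All 15 probes that carry one of these symbols were used, with 1 probe each for 7 genes, 2 for LTBP1 and 3 each for MFAP2 and COL8A1. Because the choice drew on that contrast, the changes of the 10 genes are given as a description, without p-values. RNA of SKOV3ip1 cells, which derive from the human ovarian cancer line SKOV3, was hybridised to 6 Illumina bead arrays of a single colour. The siCon group (3 arrays) was treated with control siRNA and the siSTAT3 group (3 arrays) with siRNA that knocks down STAT3, which carries signals of cytokine receptors to the nucleus as a transcription factor. The siRNA dose and the time of harvest are not given in the sources used here, and only 1 cell line was studied, without a group that received no siRNA.

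Microfibrils are thin extracellular filaments built from fibrillins. Microfibril-associated glycoproteins and fibulins bind along them, elastin is laid down on them, and latent TGF-beta binding proteins tether the stored growth factor to them. Matricellular proteins such as SPARC and TGFBI are secreted proteins that bind matrix and cell surface receptors and alter adhesion, without being main structural parts of the matrix. In ovarian tumours such proteins come from stromal cells and from carcinoma cells, so a cultured line shows the part made by the tumour cells themselves.

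STAT3 itself was lower on every siSTAT3 array. On probe ILMN_2401978 its normalised intensity was 2778, 2241 and 2544 in siCon and 589, 549 and 667 in siSTAT3, which left 23.9% of the control level. Its other probes kept 29.8% and 32.3%. Median unnormalised intensity lay between 93.0 and 97.1 on the 6 arrays. One array, siCon replicate 3, stood apart, with a score of -23.8 on the first principal component against -1.18 and 0.42 for the other siCon arrays. Of 14145 tested genes 207 changed, 151 lower and 56 higher. The split was 254 lower and 148 higher without siCon replicate 3, and 58 and 8, 73 and 9, and 57 and 4 without siSTAT3 replicates 1, 2 and 3. Epithelial and ovarian carcinoma markers were present, among them ERBB2 (mean 5659.8 in siCon), EPCAM (2766) and PAX8 (1247), while MUC16 (110.4) and WT1 (102.4) lay near the median of all probes, 94.8.

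Of the 10 matrix genes, 5 fell after the STAT3 siRNA: EFEMP1, MFAP5, COL8A1, TGFBI and SPARC, by 1.92-fold to 1.41-fold. None rose, where 0.396% of all tested genes were called higher, and the remaining 5, FBN1, FBN2, LTBP1, MFAP2 and EFEMP2, had log2 changes between -0.13 and 0.14. Over all tested genes 1.07% were called lower, by limma with a Benjamini-Hochberg adjusted p below 0.05. The 3 siSTAT3 arrays lay below the 3 siCon arrays for 6 of the 10 genes, the 5 called ones and LTBP1, where 8.56% of all tested genes showed that order. The median log2 change of the 10 genes was -0.31, against 0.01 for all tested genes. The list was assembled with these results in view, so these shares describe it and carry no test. Whether the samples of a group came from separate cultures is not stated in the labels, so the p-values below cover nothing but sample-to-sample spread, possibly technical. In RNA from whole cultures, fewer cells of a kind and less RNA per cell cannot be told apart.

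**Figure D1:**
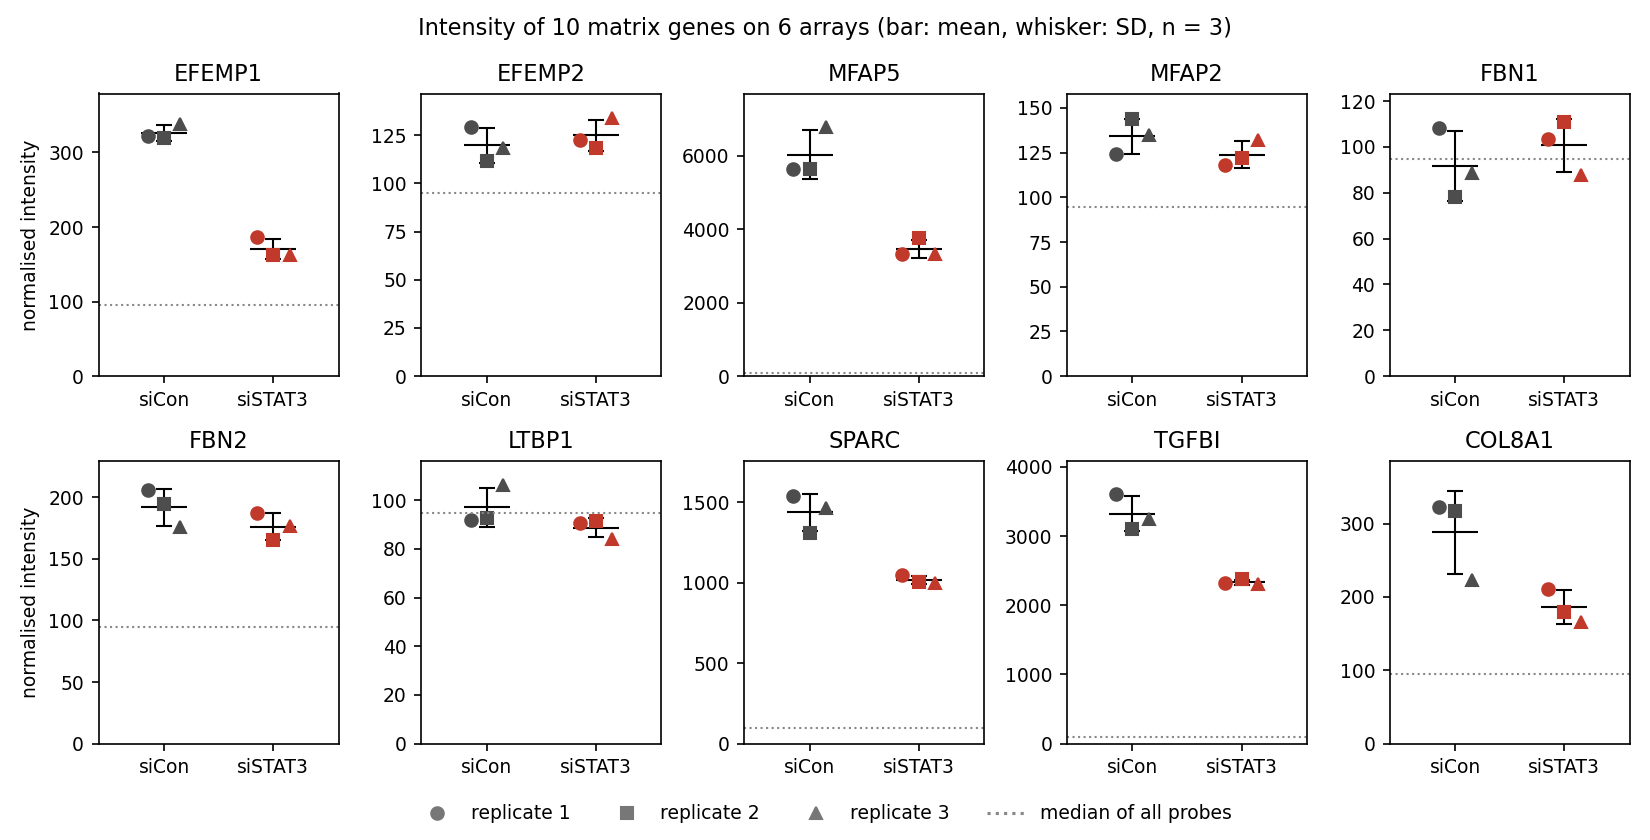
Normalised intensity (vertical axes, linear, each starting at 0) of the 10 matrix genes on the 3 siCon and 3 siSTAT3 arrays, with the mean as a bar and the SD as a whisker; the dotted line is the median of all probes, 94.8. EFEMP1, MFAP5, SPARC, TGFBI and COL8A1 are lower on all siSTAT3 arrays, whereas EFEMP2, MFAP2, FBN1 and FBN2 overlap between the groups, and FBN1 and LTBP1 sit close to the dotted line.

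The promoters of SPARC and TGFBI are shown because both genes fell, by a similar amount, and both have an entry in the RefSeq promoter table used here (build GRCh38.p14), which held 7 of the 10 genes. EFEMP1, MFAP5 and COL8A1 were not matched. Each run gives the 250 bases before the annotated start, 5′ to 3′ on the gene's strand. SPARC lies on the minus strand and its window is chr5:151686916-151687165, and TGFBI lies on the plus strand with the window chr5:136028738-136028987. Capitals mark a match to a searched motif.
SPARC: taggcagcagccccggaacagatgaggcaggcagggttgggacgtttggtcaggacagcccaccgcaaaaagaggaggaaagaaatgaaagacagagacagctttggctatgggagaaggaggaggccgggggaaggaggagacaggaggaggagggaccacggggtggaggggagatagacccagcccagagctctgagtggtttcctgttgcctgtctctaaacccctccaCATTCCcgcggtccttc
TGFBI: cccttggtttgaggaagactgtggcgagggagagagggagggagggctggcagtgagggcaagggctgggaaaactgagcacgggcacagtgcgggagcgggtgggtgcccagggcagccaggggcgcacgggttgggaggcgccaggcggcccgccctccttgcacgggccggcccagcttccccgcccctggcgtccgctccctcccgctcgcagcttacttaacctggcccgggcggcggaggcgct
Both strands were searched for the STAT motif TTCNNNGAA, the AP-1 motif TGANTCA and the TEAD motif GGAATG, which do not overlap in these windows. SPARC held 1 TEAD motif match, on the opposite strand, 17 to 12 bases before the start, and TGFBI held no match. Among all 35116 promoter windows of the same length the STAT motif was found in 6.57%, the AP-1 motif in 6.57% and the TEAD motif in 11.9%. None of the 10 windows of the 7 genes held the STAT motif. FBN1 held 1 TEAD motif and the upstream window of MFAP2 2 AP-1 motifs. GC content was 59.2% for SPARC and 72.8% for TGFBI. A match is a string of letters and no evidence of binding, and its absence covers these 250 bases only.

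Among the fibulins, secreted glycoproteins of the extracellular matrix, EFEMP1 and EFEMP2 gave different pictures. EFEMP1 encodes fibulin-3, a protein of basement membranes and elastic fibres that binds TIMP3. Its intensity on probe ILMN_2350634 was 321, 319.5 and 339 in siCon and 187, 163 and 162 in siSTAT3. The lowest control array lay far above the highest siSTAT3 array. Mean intensity fell from 327 ± 10.6 to 171 ± 13.9 (SD, n = 3), a log2 change of -0.94 ± 0.10 (SE), which was the 15th lowest of the 14145 tested genes. EFEMP2 encodes fibulin-4, which brings lysyl oxidase to tropoelastin during fibre assembly. EFEMP2 gave 129, 111 and 118 in siCon and 122, 119 and 134 in siSTAT3, so the groups overlapped, and its log2 change was 0.06 ± 0.11. The probe of EFEMP2 lay near the median of all probes, where a change would hardly show, and the difference between the changes of EFEMP1 and EFEMP2 was not tested.

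The 2 microfibril-associated glycoproteins also gave different values, a difference that was not tested. MFAP5, also called MAGP-2, is a small microfibril protein that carries an integrin-binding RGD sequence and is known in ovarian cancer as a secreted factor of stroma and tumour. On probe ILMN_1733415 it gave 5634, 5651 and 6789 in siCon, and 3317, 3750.2 and 3319.5 in siSTAT3. These intensities were far above the median of all probes on every array. The mean fell from 6024.5 ± 662 to 3462 ± 249, a log2 change of -0.80 ± 0.11, and 57.6% of the control level remained. The high value on siCon replicate 3 added to this difference, and without that array the change was -0.71. MFAP2, or MAGP-1, the other microfibril-associated glycoprotein, binds fibrillin and tropoelastin. Its brightest probe, ILMN_1787981, gave 124, 144 and 135 in siCon and 118, 122 and 132 in siSTAT3, with a log2 change of -0.11 ± 0.11 and overlapping groups. Both other MFAP2 probes lay below the intensity filter of 89.9 and went different ways. One gave 0.22 ± 0.11, with all 3 siSTAT3 arrays (85.2 to 101) above the siCon arrays (77.7 to 82.3), and the other -0.03 ± 0.17.

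The fibrillins, the scaffold to which the former genes' products attach, and the latent TGF-beta binding protein were not called. FBN1, the main fibrillin of adult microfibrils and the gene mutated in Marfan syndrome, gave 108, 78.2 and 88.4 in siCon and 104, 111 and 87.9 in siSTAT3. That is at the median of all probes, and its log2 change of 0.14 ± 0.13 ranged from 0.04 to 0.27 when single arrays were left out. FBN2, the fibrillin most active in development, gave 205.5, 194 and 176 in siCon and 187, 165 and 176 in siSTAT3, a log2 change of -0.12 ± 0.11. The groups of FBN2 overlapped. LTBP1 encodes a protein that anchors latent TGF-beta in the matrix. Its brighter probe gave 91.95, 92.6 and 106 in siCon and 90.5, 91.4 and 84.2 in siSTAT3, a log2 change of -0.13 ± 0.11. The groups did not overlap there, but the highest siSTAT3 array lay only just below the lowest siCon array. The second LTBP1 probe, below the filter, gave -0.11 ± 0.11 with overlapping groups. Intensities this close to the median of all probes may be background for the most part, and no detection p-values came with the tables.

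SPARC, a collagen-binding matricellular protein that is also called osteonectin, gave 1538, 1309 and 1464 in siCon and 1047, 1007 and 1001 in siSTAT3. All siSTAT3 values lay close together and below every control. Mean intensity fell from 1437 ± 117 to 1019 ± 25.03, a log2 change of -0.49 ± 0.10. TGFBI, a TGF-beta-induced protein with fasciclin domains that binds collagens and integrins, gave 3607, 3109 and 3252 in siCon and 2315, 2376 and 2308 in siSTAT3. Here too the groups were clearly separated. The mean fell from 3323 ± 256 to 2333 ± 37.3, a log2 change of -0.51 ± 0.10, and 70.3% of the control level remained, against 71.01% for SPARC. For both genes the siSTAT3 arrays varied less than the siCon arrays. Over all tested genes too, siSTAT3 arrays correlated more closely with their own group (mean r 0.995) than siCon arrays did (0.989 to 0.992). Both calls were lost under median scaling (SPARC -0.46, TGFBI -0.48) and without siCon replicate 1, when SPARC gave -0.44 and TGFBI -0.45. They were also lost without siSTAT3 replicate 1, 2 or 3, although the changes stayed between -0.48 and -0.51 for SPARC and between -0.50 and -0.52 for TGFBI.

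COL8A1 encodes a chain of collagen VIII, a short-chain collagen that forms networks in endothelial and vascular matrix. Its brightest probe, ILMN_1685433, gave 323, 317 and 223 in siCon and 211, 179 and 166 in siSTAT3. The control arrays differed widely, and siCon replicate 3 came close to the highest siSTAT3 array. The mean fell from 288 ± 56.4 to 186 ± 23.2, a log2 change of -0.62 ± 0.14. The other probes did not share this fall. A second probe annotated to the same transcript, ILMN_2402392, gave 124, 119 and 120.1 in siCon and 93.2, 113 and 124 in siSTAT3, a change of -0.15 ± 0.12 with overlapping groups. The probe ILMN_2246563, annotated to another COL8A1 transcript, gave 90.02, 92.2 and 81.4 in siCon and 107, 90.8 and 96.2 in siSTAT3, a change of 0.15 ± 0.11. Both lay near the median of all probes. Averaged over its 3 probes COL8A1 gave -0.20 and was not called. The call on the brightest probe was lost in 7 of the other settings as well, among them the authors' processed values (-0.62) and each setting that left out 1 array except that without siCon replicate 3. The change was -0.80 without that array and -0.53 to -0.71 without any 1 of the others.

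**Figure D2:**
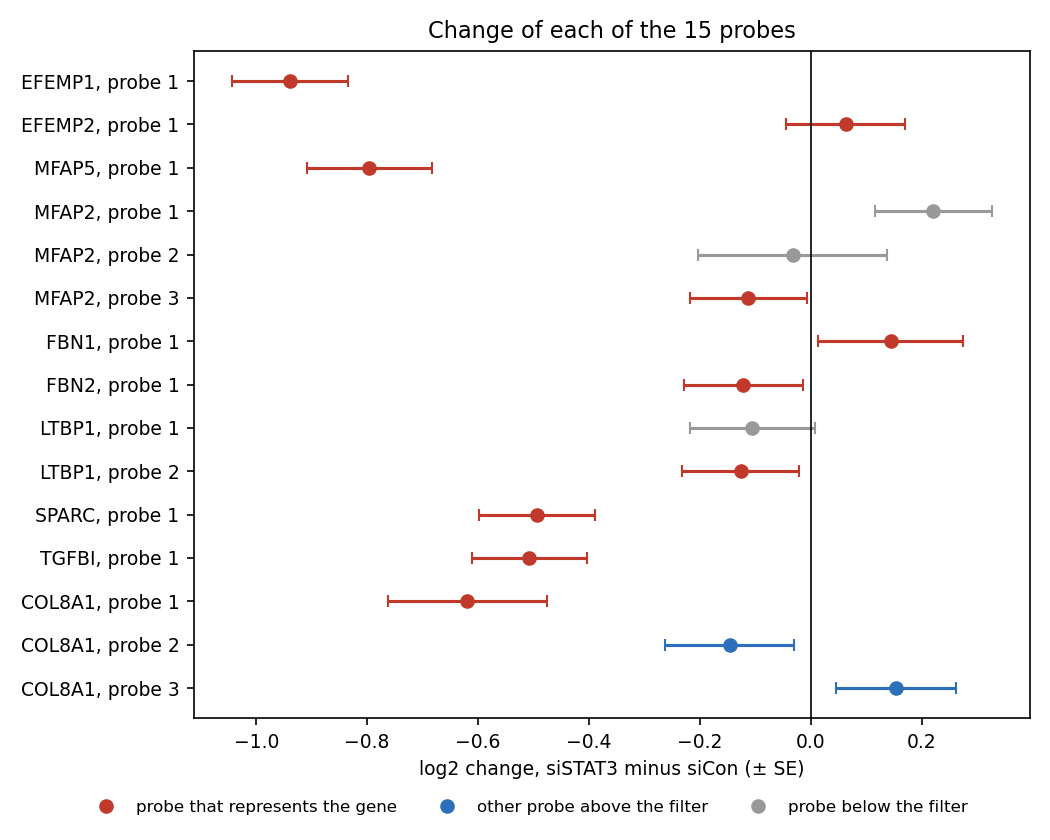
Log2 change (siSTAT3 minus siCon, horizontal axis, whiskers ± SE) of each of the 15 probes; red points stand for the probe that represents the gene, blue for other probes above the filter and grey for probes below it. The COL8A1 probes run from -0.62 to 0.15, and EFEMP1 and MFAP5 lie far to the left of EFEMP2 and MFAP2.

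Other genes of the same matrix pathways were taken by family. Of 87 listed genes 59 were tested, and 3 fell, none rose and 56 were not called. Over all tested genes 1.07% were called lower and 0.396% higher. The 3 that fell, THBS1, CCN2 and CCN1, were among 11 tested matricellular genes, of which 8 were not called and 3 lay above 0. The median log2 change of the 59 was -0.07, against 0.01 for all tested genes. Of the 59 genes 40 lay below 0, where 6835 of all 14145 tested genes did. At an unadjusted p below 0.05 there were 9 of the 59, against 1712 of all 14145 tested genes. By limma with Benjamini-Hochberg adjustment over all genes, THBS1 (thrombospondin, an adhesive glycoprotein that activates latent TGF-beta) fell by 0.72 ± 0.15 on the log2 scale (adjusted p = 0.0249). Its arrays read 4982, 3333 and 5227 in siCon and 2679, 2442 and 2957 in siSTAT3. CCN2 (connective tissue growth factor) fell by 0.61 ± 0.11 (limma adjusted p = 0.00982), from 2781, 2225 and 2596 to 1613, 1681 and 1679. CCN1, a related integrin ligand, fell by 0.53 ± 0.12 (limma adjusted p = 0.0482), from 1713, 1755 and 2099 to 1294, 1109 and 1461. For these 3 genes no siSTAT3 array reached the lowest siCon array. Among the 59 genes 12 showed that order and 47 had overlapping groups, where 8.56% of all tested genes showed that order. Over the 15 other settings the adjusted p ranged from 0.00112 to 0.162 for THBS1, from 0.000814 to 0.0876 for CCN2 and from 0.0199 to 0.258 for CCN1, and the sign never changed. None of the 3 was called without siCon replicate 1 or without any 1 of the siSTAT3 arrays, when THBS1 ranged from -0.64 to -0.79, CCN2 from -0.53 to -0.62 and CCN1 from -0.43 to -0.63. CCN1 was also not called without siCon replicate 2 (-0.57), under median scaling (-0.49), with averaged probes or with a variance trend.

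Close relatives of the fallen genes did not pass. With 1.07% of all tested genes called lower and 0.396% higher, the lack of a call in a list this short says little. Among other SPARC family members, SMOC2 gave -0.34 ± 0.11 (limma adjusted p = 0.197) and SPOCK1 -0.34 ± 0.11 (limma adjusted p = 0.16), with groups that did not overlap for either gene. SMOC2 was called with array weights (-0.39) and without siCon replicate 3 (-0.43). FSTL1 gave -0.21 ± 0.15, and SPARCL1, near the median of all probes, 0.12 ± 0.11. In all, none of the 5 tested SPARC relatives was called and 4 lay below 0. Of the other fibulins none of 4 was called. FBLN1, at 1078 in siCon and 1092 in siSTAT3, gave 0.03 ± 0.13, and its sign changed in 3 of 15 settings, while FBLN2 gave -0.17 ± 0.13 and FBLN5 0.05 ± 0.10. COL8A2, the partner chain of collagen VIII, gave -0.04 ± 0.11, and its sign too changed in 3 of 15 settings.

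The genes that build and process elastic fibres were likewise not called, again in short lists. LTBP3 gave 0.28 ± 0.12 (limma adjusted p = 0.37), the highest change of the 59 genes. LTBP4 and FBN3, near the median of all probes, gave 0.05 and -0.03. None of 11 tested microfibril-associated genes was called, with changes between -0.15 (THSD4) and 0.12 (MFAP4). Several of the 11, among them ELN (mean 97.0 in siCon), MFAP4 (91.1) and ADAMTS17 (93.4), lay near the median of all probes. There a change would hardly show. The brightest of them was MFAP3 (312). Of 8 cross-linking and processing genes, LOX, the lysyl oxidase that joins elastin and collagen chains, gave the lowest change, -0.26 ± 0.11 (limma adjusted p = 0.337). Its siSTAT3 arrays (196 to 216) lay below its siCon arrays (222 to 259), where 8.56% of all tested genes showed that order. LOXL4, near the median of all probes, gave -0.19 and BMP1, a procollagen proteinase, -0.16. None of 6 tested collagens was called, and COL5A1 gave -0.36 ± 0.12 (limma adjusted p = 0.21), and it was called with array weights (-0.40) and without siCon replicate 3 (-0.46). COL1A2 (-0.09) and COL11A1 (-0.07) lay near the median of all probes. Of 10 tested integrin chains that bind RGD sequences or collagen none was called, and ITGAV gave -0.37 ± 0.19 (limma adjusted p = 0.454), ITGA1 -0.15 and ITGB8 -0.13. TGFB3 (-0.17) was the 1 TGF-beta ligand gene tested. TGFB3, ITGA1 and ITGB8 lay near the median of all probes.

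**Figure D3:**
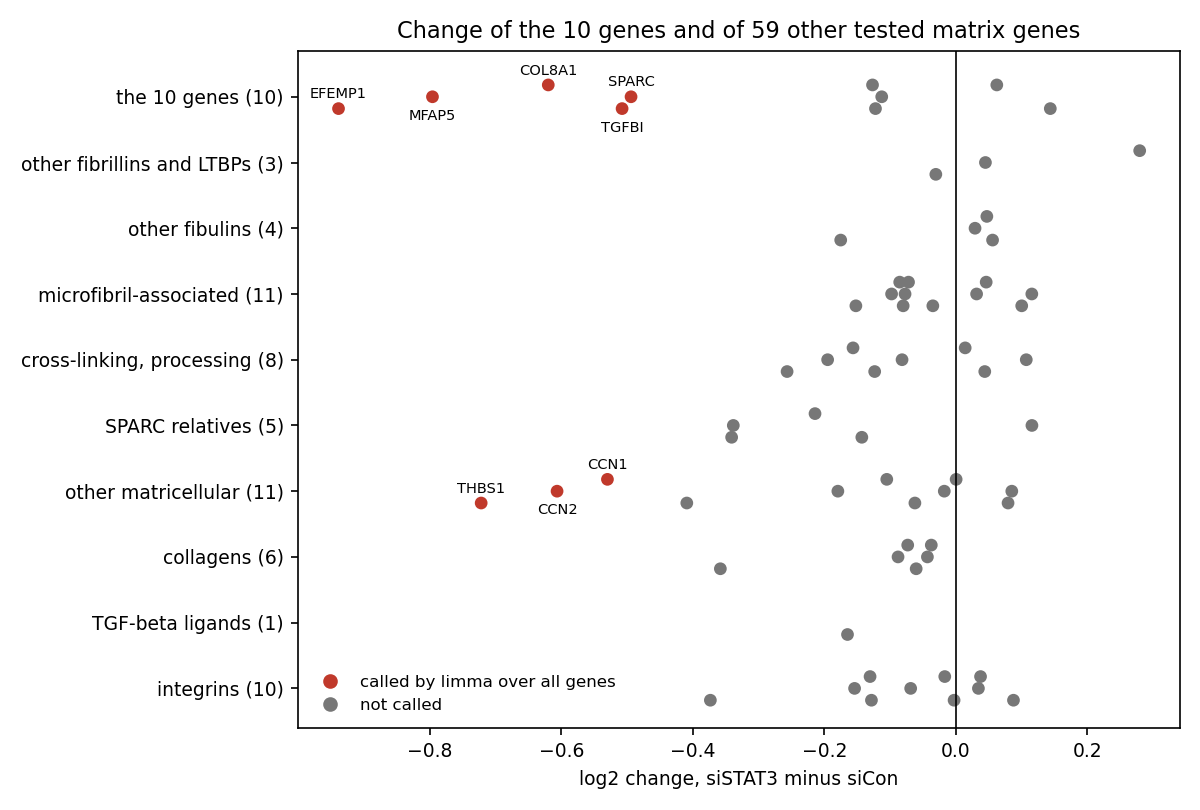
Log2 change (siSTAT3 minus siCon, horizontal axis) of the 10 matrix genes and of 59 other tested genes in 9 families, with the number tested in brackets; each point is a gene, spread vertically for legibility, and red marks genes called by limma over all genes. The called genes are EFEMP1, MFAP5, COL8A1, TGFBI and SPARC in the top row and THBS1, CCN2 and CCN1 among other matricellular genes.

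Several of these matrix genes are also products of fibroblasts and mesothelium, so markers of other cell types were set beside them. Of 9 tested fibroblast and mesothelial markers 1 fell, LRRN4 (-0.52 ± 0.10, limma adjusted p = 0.0191), and 8 were not called. Over all tested genes 1.07% were called lower and 0.396% higher, so the lack of a call in marker lists this short says little. The summed intensity of all 11 markers on the array was 3080.3 to 3165 in siCon and 2495 to 2534 in siSTAT3. Most of that gap lay in a pair of bright genes listed as mesothelial markers, LRRN4 (845 to 587) and MSLN (1392 to 1048, log2 change -0.41, limma adjusted p = 0.0606). Both were read in cultures of the SKOV3ip1 line, and whether their level reflects mesothelial cells was not tested. The fibroblast markers DCN, THY1, FAP, COL1A1 and COL1A2 had means between 89.1 and 104 in both groups, near the median of all probes, PDGFRA 138 and 145, and PDGFRB and LUM lay below the filter. The part of the marker shift in the changes above was not tested. Leukocyte markers summed to 1778 to 2319 in siCon and 1817 to 1939 in siSTAT3, and endothelial markers to 519 to 596 and 533 to 574, with no member of either list called. Most of the leukocyte sum was a single gene, CD68 (mean 1557 in siCon and 1410 in siSTAT3). CD14, MS4A1 and CD79A lay near the median of all probes, and PTPRC and CD3E below the filter. Of 9 epithelial and ovarian carcinoma markers KRT8 fell (-0.52, limma adjusted p = 0.0458), and their sum was 15082 to 16950.3 in siCon and 15584 to 17045 in siSTAT3.

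For each called gene the tested genes with the most similar profile over the 6 arrays were found by Pearson's r of log2 intensity. Values over 0.99 were met for each, on points that share the siRNA contrast and the array. For EFEMP1 they were IGFBP3 (0.994), SLC25A15 (0.992) and RNPEP (0.992), and for MFAP5 LINC02870 (0.996), NHLRC3 (0.993) and ASIC2 (0.993). For TGFBI they were EEF2K (0.998), TNFRSF21 (0.993) and KDM2B (0.992), and for SPARC CNN3 (0.994), H2AB1 (0.992) and COLGALT1 (0.991). For COL8A1 they were SMOC2 (0.996), SERPINB8 (0.994) and ZNF546 (0.992). Pearson's r takes no account of the size of a change. Of these 15 genes 10 were not called, among them all 3 for SPARC and all 3 for COL8A1, with ZNF546 at a log2 change of -0.07. With 6 arrays in 2 groups such values describe these arrays only.

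**Figure D4:**
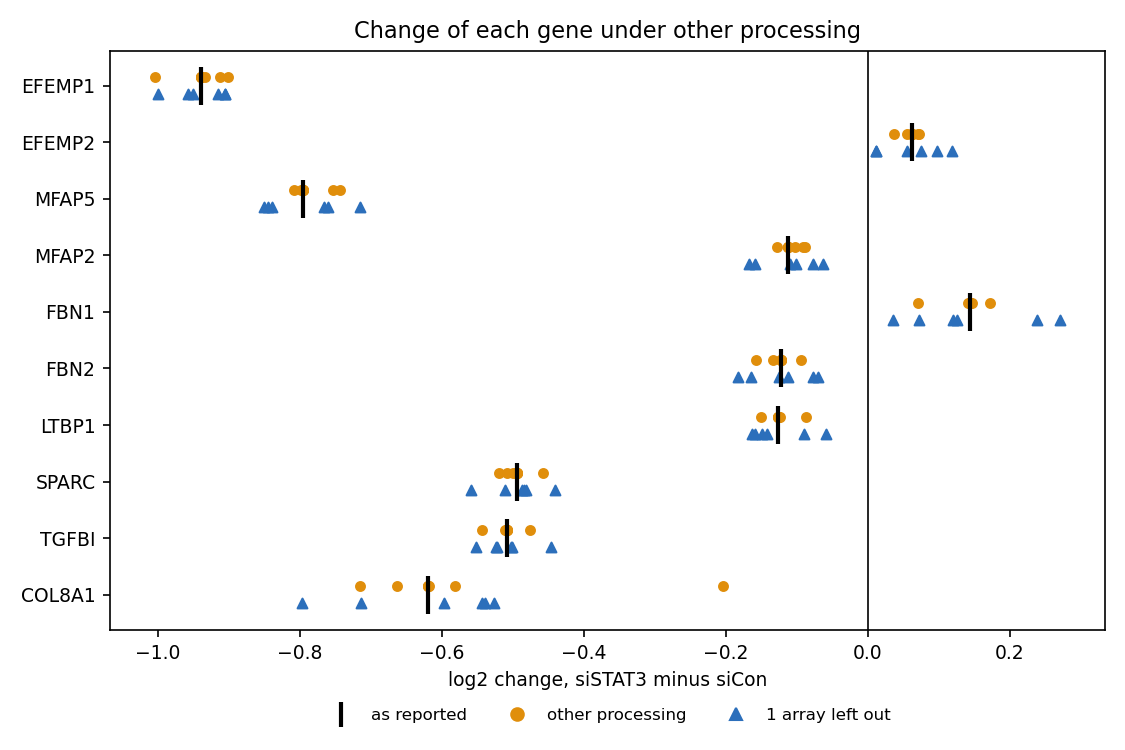
Log2 change (siSTAT3 minus siCon, horizontal axis) of each of the 10 matrix genes as reported (black bar), under other processing (orange points) and with 1 array left out (blue triangles). EFEMP1 and MFAP5 stay between -1.004 and -0.71, and COL8A1 moves to -0.20 when its probes are averaged.

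Across all 15 other settings EFEMP1 ranged from -1.004 to -0.90 and MFAP5 from -0.85 to -0.71, and both were called in each. SPARC and TGFBI were called in 10 of 15 and COL8A1 in 7 of 15. FBN2, MFAP2, LTBP1, EFEMP2 and FBN1 were called in none, and each kept its sign in every setting that tested it. The other filter settings, the variance trend and the replicate block cannot alter a log2 change, so a kept sign there carries no information.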

How the data were processed

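RNA of 3 siCon and 3 siSTAT3 samples was labelled with biotin and hybridised to Illumina bead arrays, per the labels' protocols. The authors deposited unnormalised and processed intensity tables. The submitters' processing notes name BeadStudio. How background was treated is not given in the sources used. The processed column of siCon replicate 1 had a median of 94.2, and each processed column had the probe order of its unnormalised column (rank correlation 1).

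Unnormalised intensities were quantile-normalised and taken to log2 in limma 3.58.1 (R 4.3.3), without background subtraction, so folds of dim probes may be understated. Of 48803 probes, 28098 had 1 gene symbol, 13 several and 20692 none. Symbols were updated through RefSeq (GRCh38.p14), 28059 by Entrez ID and 14 by accession, and 25 were kept. Probes above the 40th percentile (89.9) were tested, with the brightest probe per gene, two-sided by lmFit and eBayes, Benjamini-Hochberg adjusted, with a threshold of 0.05. The standard errors of further probes use the prior variance of a fit over probes. Group and replicate come from sample titles. In data simulated for siSTAT3 against siCon (14145 genes), the test recovered 94 of 100 genes with a log2 change of 1 and 35 of 100 with one of 0.5, with 2 false calls. No arrays were identical. Slide and scan batches were not analysed here. The number of arrays limits the precision.

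Members, lists and tests were chosen with earlier results of these data known. Named are STAT3, all members, of other matrix genes those called and up to 3 per list by smallest p with close relatives, and the 3 most similar genes per called member. Marker lists are given by count. Alternatives were median scaling, the processed values, normexp with an offset of 50, no filter and a 60th percentile filter, averaged probes, a variance trend, array weights, a replicate block and each array left out.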

Additional observations from a re-analysis of the deposited data

How the results depend on the processing

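The count of called genes, 207, was 437 with array weights and 61 to 402 with 1 array left out, the highest without siCon replicate 3 (254 lower, 148 higher) and the lowest without siSTAT3 replicate 3 (57 lower, 4 higher). In the other settings it stayed within 1.5 times. The number of called genes among the 10 matrix genes, 5, was 2 under median scaling and 2 to 5 with 1 array left out. It was 2, EFEMP1 and MFAP5, without siCon replicate 1 or any of the siSTAT3 arrays. Among the 59 other matrix genes, the 3 called became 5 with array weights and 0 to 5 with 1 array left out. They were 0 without siCon replicate 1 or any siSTAT3 array by limma, and 5 without siCon replicate 3. The cause of these moves was not tested. With the replicate number as a block 283 genes were called, 206 of them among the 207, with 5 matrix genes and 3 others as before. Same-numbered arrays deviated together with correlations of 0.05, 0.18 and 0.07, each array correlating best with its own number. Values were centred within each group first, so these correlations constrain each other and cannot show a pairing. The labels number the replicates and state no pairing. Of the changes of the 10 matrix genes in other settings 147 moved by less than the spread between replicates and 1, COL8A1 with averaged probes, by more. Many of the 147 could not move. The other filter settings, the variance trend and the replicate block leave a log2 change as it was by construction. Averaged probes do so for every gene with 1 probe above the filter. Those comparisons say nothing about stability. Signal over background limits FBN1, LTBP1, MFAP2 and EFEMP2.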
